A study of Mus musculus with 67 samples.

Results

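RNA of the retinal pigment epithelium (RPE) was compared between a group labelled 6h and a group labelled NB. The comparison used all 3 libraries of the 6h group and all 5 of the NB group, 8 of the 33 RNA libraries of the series, and covered every gene in the RPE table. All mice of both groups were Abca4-/- Rdh8-/-, a genotype the labels call photosensitive, so the NB group carried both deletions too. The labels give no age, do not spell out NB, and do not name the event from which the 6 h were counted. The 4 RPE libraries at 1d and the 4 at 3d also enter the fit, where they help to set the spread behind every p-value: 452 genes passed without them, against 244 with them. Retina of the same genotype (3 libraries at 6h, 6 NB, 4 at 1d and 4 at 3d) served for the comparison of tissues, and the 1d and 3d libraries of both tissues sorted genes by the tissue they are richer in. Each library came from both eyes of 1 mouse, pooled. RPE cells were shaken off the opened eyecup into an RNA stabiliser after the neural retina had been lifted away, and the choroid was then taken out. The labels do not say in so many words that each library was a different mouse, so the p-values below measure the spread between these libraries. Levels are read counts scaled to library size (CPM), and the tests are limma tests on log2(CPM + 0.5) over all 16712 genes, with Benjamini-Hochberg adjusted p under 0.05 as the threshold.

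The RPE is a single sheet of pigmented cells between the photoreceptors and the choroid. It turns used retinoid from the photoreceptors back into the visual chromophore, takes up shed outer segments, moves glucose, lactate and bicarbonate between blood and retina, and holds the tips of the photoreceptors between its microvilli. Because outer segments and fragments of neural retina stay attached when the retina is lifted off, RPE preparations also hold photoreceptor transcripts, whose amount can differ from one dissection to the next.

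Measured against retina of the same time, rod transcripts stood higher in each of the 3 6h libraries than in any NB library. The median level of 30 rod genes was 19.8, 11.02 and 32.8% of their mean level in 6h retina in the 6h RPE libraries, against 7.53, 8.42, 5.33, 8.19 and 6.64% of the NB retina level in the NB RPE libraries. The groups did not overlap (two-sided exact permutation p = 0.0357, the smallest that 56 arrangements allow). Each group was divided by its own retina mean, and this measure was chosen after seeing the data. The p-value is thus not a test of the RPE libraries, and no conclusion is drawn from it. Retina and RPE tables were normalized separately, and 12 of the 30 rod genes were themselves lower in 6h retina than in NB retina (limma), so this ratio moves with the retina too. Without that ratio the groups overlapped: the summed rod level was 13116, 7904 and 20759 CPM in 6h RPE, against 8921, 9749, 6399, 9049.8 and 7328 CPM in NB RPE (exact permutation p = 0.143). The 6h library 3 had the highest sum and the 6h library 2 lay among the NB libraries.

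**Figure D1:**
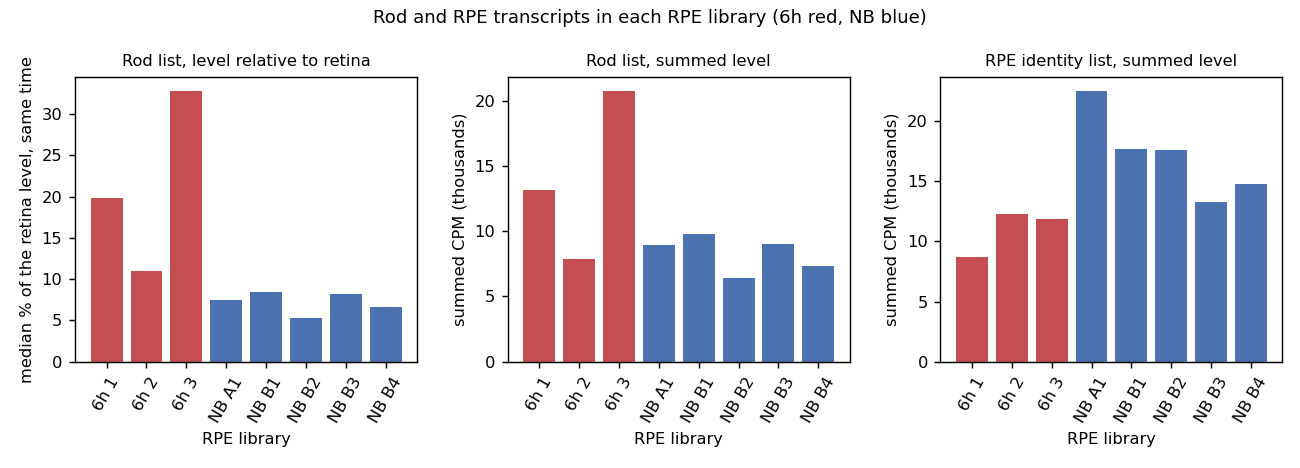
Rod and RPE transcripts in each RPE library, 6h in red and NB in blue: the median level of 30 rod genes as a percentage of their level in retina of the same time (left), their summed CPM (middle) and the summed CPM of 24 RPE identity genes (right). The 6h bars stand above all NB bars on the left and below all NB bars on the right, and overlap them in the middle.

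The summed level of RPE identity genes was lower in every 6h library than in any NB library. Their detection does not test the RPE label, since all listed rod, lens and surface epithelium genes were also detected in all 8 libraries. All 24 RPE identity genes were detected in all 8 libraries, with a sum of 8726, 12264 and 11847 CPM in 6h RPE, against 22497, 17679.7, 17579, 13258 and 14724 CPM in NB RPE. The groups did not overlap, but the difference did not pass after adjustment (ratio of means 0.638, exact permutation p = 0.0357, adjusted over the identity and rod sums 0.0714). In bulk RNA, fewer RPE cells and less of these RNAs per cell cannot be told apart. The channel gene Best1, a usual RPE marker, averaged 2.07 ± 0.347 CPM in 6h RPE and 1.65 ± 0.492 CPM in NB RPE (SD, n = 3 and n = 5).

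Other tissues of the eye were also present. The 14 surface epithelium genes, among them the keratins Krt5 and Krt12, summed to 29139 to 46168 CPM in 6h RPE and 21748 to 60177 CPM in NB RPE, all detected in all 8 libraries. Their sum averaged 37519 CPM in 6h RPE and 39374 CPM in NB RPE, above the 10946 and 17148 CPM of the RPE identity genes. The 16 lens genes summed to 3477 to 14628 CPM in 6h RPE and 2542 to 10023 CPM in NB RPE, highest in the 6h library 3 and the NB library B2. Both ranges overlapped between the groups. Of 24 microglia and macrophage genes 23 were in the table, with 877 to 1065 CPM in 6h RPE and 820.0 to 1586 CPM in NB RPE. The NB library B3 held 440.1 CPM of the 2 neutrophil genes in the table, against 29.3 to 72.9 CPM in 6h RPE, and the other 9 neutrophil genes were not in the table. Recovered depth was 25.7 to 26.8 M reads in the 6h libraries, 23.1 M in the NB library A1 and 13.0 to 14.4 M in the NB libraries B1 to B4. The deeper set thus held all 6h libraries and 1 NB library; a comparison within it gives 5 genes higher and 27 lower, with that lone NB library assumed to vary like the other groups. Of the 48 genes named below all keep their sign in it but 44 do not pass, and 6 are smaller by over 1.5 times: Col3a1 (log2 fold change -0.605), Cry1 (0.14), Gstp1 (-0.19), Hspa5 (-0.25), Pde6c (0.46) and Slco1c1 (0.37).

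Of 16712 genes tested, 244 passed the threshold at 6h against NB, or 1.46%. They were 135 higher (0.808%) and 109 lower (0.652%), and 91 of the higher but 28 of the lower differed by at least 2-fold. The values of the groups did not overlap for 2118 genes, or 12.7% of those tested, and for 240 of the 244 called. The largest rises and falls named below were taken only from called genes without overlap. Their separation was thus set by that choice. The median log2 fold change of all genes was -0.00. The counts rested on single libraries: there were 9 calls without the first 6h library, 442 without the second and 17 without the third. Leaving out NB library A1 gave 1011 calls, leaving out B1 gave 41, B2 gave 40, B3 gave 192 and B4 gave 67. Of the 48 genes named in the text, 6 kept their call without the first 6h library, 39 without the second and 9 without the third; between 17 and 48 kept it without 1 NB library. Scaled to library totals instead, 147 genes passed, 119 higher and 28 lower.

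The direction of change followed which tissue the RNA is richer in. Genes were sorted by their levels in the 1d and 3d libraries of both tissues, whose levels do not enter the 6h to NB difference, into those more than 2-fold higher in retina, those more than 2-fold higher in RPE, and those shared. Of 4574 retina-richer genes 113 rose and 1 (Ciart) fell; the risers are 83.7% of all genes that rose, while retina-richer genes made up 27.4% of those tested. Of 4359 RPE-richer genes 11 rose and 73 fell, 66.97% of all genes that fell and 26.1% of those tested. The 7779 shared genes had 11 that rose and 35 that fell. Median log2 fold changes were 0.24 for retina-richer, -0.06 for shared and -0.12 for RPE-richer genes. The values lay wholly above NB for 1119 genes (6.7% of those tested) and wholly below for 999 (5.98%). The retina share of the same libraries moved the same way as these classes, and its part in the calls was not tested; with the rod level as a covariate 18 genes passed, 15 higher and 3 lower.

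**Figure D2:**
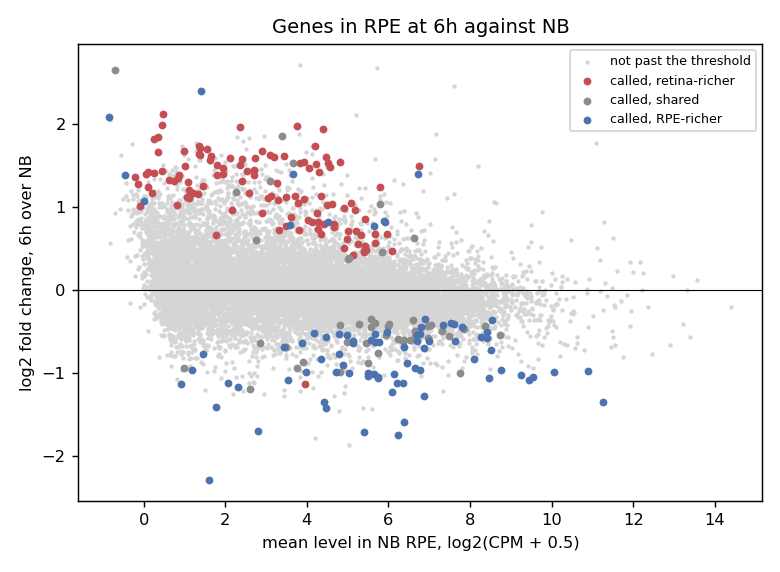
Log2 fold change of each gene in RPE, 6h over NB, against its mean level in NB RPE on the log2(CPM + 0.5) scale, with genes past the threshold coloured by whether their RNA is richer in retina, shared or richer in RPE at 1d and 3d. Of the coloured points above 0, 113 of 135 are retina-richer, and of those below 0, 73 of 109 are RPE-richer.

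Photoreceptor and inner retinal genes were among the largest rises. Neurod1, a transcription factor of photoreceptors and amacrine cells, had 63.2, 38.03 and 57.3 CPM in 6h RPE, against 18.1, 13.1, 10.3, 12.6 and 11.1 CPM in NB RPE. All 6h libraries exceeded all NB libraries (log2 fold change 1.97 ± 0.33 SE, adjusted p = 0.0138), and RPE held 9.07% of the retinal level at 6h and 3.43% in NB. Pcare, an actin regulator of the photoreceptor cilium, had 105, 48.6 and 89.02 CPM in 6h RPE, against 26.4, 20.5, 10.98, 23.5 and 20.95 CPM in NB RPE, again without overlap (log2 fold change 1.94 ± 0.33 SE, adjusted p = 0.0138). Gnb3, the beta subunit of cone transducin, had 74.02, 34.4 and 85.97 CPM in 6h RPE, against 18.5, 20.4, 13.2, 16.9 and 20.9 CPM in NB RPE (log2 fold change 1.74 ± 0.32 SE, adjusted p = 0.0204). Ache, the acetylcholinesterase that ends cholinergic signalling, averaged 19.4 ± 3.14 CPM in 6h RPE and 4.603 ± 0.685 CPM in NB RPE (log2 fold change 1.96 ± 0.23 SE, adjusted p = 0.00149) and stood at 22.9% of the retinal level at 6h and 6.94% in NB. Each of the 4 had been at a lower percentage of its retinal level in NB RPE than in 6h RPE. The 4 were chosen for their rise in RPE and for values that do not overlap, so this is a description.

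The other retina-richer genes with the largest rises were Suv39h2, a histone H3 lysine methyltransferase (log2 fold change 1.71, adjusted p = 0.00677), Nptx1, a secreted neuronal pentraxin (log2 fold change 1.69, adjusted p = 0.0244), Fam135b (log2 fold change 1.98, adjusted p = 0.0395) and the predicted gene Gm15513 (log2 fold change 2.12, adjusted p = 0.00309). Over all 113 retina-richer genes that rose, chosen here by this contrast, the median gene stood at 12.9% of its retinal level in 6h RPE and 6.199% in NB RPE. Over all 4574 retina-richer genes tested the medians were 30.1% in 6h RPE and 25.2% in NB RPE.

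Past the threshold the retinal cell lists held rises only among cone genes and amacrine, horizontal and ganglion cell genes. Over all genes 0.808% rose. Every 6h library exceeded every NB library for 5 of 30 rod, 7 of 14 cone and 7 of 17 bipolar genes. The same held for 12 of 19 amacrine, horizontal and ganglion cell genes and 5 of 19 Muller glia genes (6.7% of all genes). Wholly below NB lay 1 amacrine, horizontal or ganglion cell gene and 4 Muller glia genes (5.98% of all genes). Of 30 rod genes none passed, the median log2 fold change was 0.86 and 29 of 30 were positive; at an unadjusted p under 0.05 there were 19 higher and 0 lower, with edgeR 2 higher and 0 lower and with DESeq2 11 higher and 0 lower. Over all genes these rules take 18.2% at an unadjusted p under 0.05 (1648 genes higher and 1388 lower), 2.29% with edgeR and 7.48% with DESeq2. Of 14 cone genes 3 rose and none fell, with a median of 0.92: Gnb3, the cone phosphodiesterase Pde6c (log2 fold change 1.12, adjusted p = 0.0204) and the cone cyclic nucleotide channel Cnga3 (log2 fold change 1.28, adjusted p = 0.0461). The Cnga3 change moved with the constant added before the log, from 1.85 with 0.1 to 0.63 with 2. It passed in 10 of 21 alternative settings. Not among these are the subtractions of the retina share, rescaled or not, which left no difference between 6h and NB in Cnga3. None of 17 bipolar genes passed, with a median of 1.14 and 13 of 17 positive; at an unadjusted p under 0.05 there were 11 higher and 1 lower, with edgeR 2 higher and 0 lower and with DESeq2 7 higher and 1 lower. Their summed level was 876 to 1236 CPM in 6h RPE and 806 to 1388 CPM in NB RPE, with the lower mean at 6h (ratio of means 0.859). The bipolar list shares Otx2 with the RPE identity list and Trpm1 with the list of RPE channel and transport genes. Its sum thus does not measure bipolar cells alone, and the part of these shared genes was not tested. Of 19 amacrine, horizontal and ganglion cell genes tested 2 rose, with a median of 0.89: Gad2, which makes the transmitter GABA (log2 fold change 1.304, adjusted p = 0.0492), and Slc17a6, a vesicular glutamate transporter (log2 fold change 1.203, adjusted p = 0.0368). The 19 genes of Muller glia had a median of 0.15, with 12 of 19 positive and 1 that fell, Car14. They summed to 7401 to 9841 CPM in 6h RPE and 9498 to 14046 CPM in NB RPE (ratio of means 0.713). The Muller glia list shares Rlbp1, Rdh10, Car14 and Sox9 with lists of RPE genes. Its sum averaged 12439 CPM in NB RPE against 7129 CPM in NB retina, so it does not measure Muller glia alone. With the rod level as a covariate the medians were 0.05 for rod, 0.31 for cone and 0.28 for bipolar genes.

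A smaller group rose outside the retina-richer class. Osmr, the receptor subunit for oncostatin M, had 246, 294 and 292 CPM in 6h RPE, against 122, 97.6, 93.7, 109 and 104 CPM in NB RPE. Its lowest 6h library was at 246 CPM and its highest NB library at 122 CPM (log2 fold change 1.39 ± 0.196 SE, adjusted p = 0.00480). Socs3, the feedback inhibitor of STAT3 signalling, had 16.3, 23.3 and 20.8 CPM in 6h RPE, against 4.84, 9.69, 10.1, 6.13 and 9.21 CPM in NB RPE (log2 fold change 1.32 ± 0.23 SE, adjusted p = 0.0154). Cebpd, a transcription factor induced by cytokines and glucocorticoids, had 30.8, 33.9 and 39.5 CPM in 6h RPE, against 8.24, 15.95, 10.2, 9.16 and 17.4 CPM in NB RPE (log2 fold change 1.53 ± 0.24 SE, adjusted p = 0.00981). None of the 3 overlapped between the groups, and Socs3 and Cebpd also passed against the NB library A1 alone, with log2 fold changes of 1.94 (adjusted p = 0.0364) and 2.005 (adjusted p = 0.0435). Socs3 and Cebpd belong to the shared class, and RPE held 74.2% and 57.2% of their retinal levels at 6h, against 261% for Osmr. With the rod-estimated share of the retina profile subtracted from each library, Osmr kept its call with a log2 fold change of 1.28 (adjusted p = 0.0190), while Socs3 had 0.85 (adjusted p = 0.0817) and Cebpd 0.89 (adjusted p = 0.145).

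The promoters of Socs3 and Osmr are shown because these genes rose, belong to the LIF, oncostatin and STAT3 axis and have an entry among the RefSeq promoters of build GRCm38.p6, each running from 250 bases before to 50 after the gene start. Both are on the minus strand, Socs3 at chr11:117969317-117969616 and Osmr at chr15:6874264-6874563. Capitals mark a match to the STAT letters TTCNNNGAA or to the AP-1 letters TGANTCA, searched on both strands.
Socs3: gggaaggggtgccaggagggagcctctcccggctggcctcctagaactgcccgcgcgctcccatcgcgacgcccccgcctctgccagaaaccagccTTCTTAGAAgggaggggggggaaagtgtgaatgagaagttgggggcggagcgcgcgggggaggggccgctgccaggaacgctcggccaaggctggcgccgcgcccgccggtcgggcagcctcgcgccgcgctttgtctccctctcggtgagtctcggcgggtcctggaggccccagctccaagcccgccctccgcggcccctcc
Osmr: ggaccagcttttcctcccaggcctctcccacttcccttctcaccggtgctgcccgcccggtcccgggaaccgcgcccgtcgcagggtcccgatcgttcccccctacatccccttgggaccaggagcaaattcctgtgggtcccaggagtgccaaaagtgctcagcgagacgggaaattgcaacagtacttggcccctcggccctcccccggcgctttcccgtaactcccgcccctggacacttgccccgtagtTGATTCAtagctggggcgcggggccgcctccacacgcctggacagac
The Socs3 window held 1 STAT match, TTCTTAGAA, and the Osmr window 1 AP-1 match, TGATTCA. Of 32851 promoters 8.298% held a STAT match and 7.81% an AP-1 match, so each of these is a description of the letters and no more.

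Angptl4 and Plin2 rose. Of 17 genes of lipid carriers and efflux, which include Plin2 but not Angptl4, 16 did not pass, where 1.46% of all genes passed. Of the 17, 10 were negative (list median -0.06). Angptl4, a secreted inhibitor of lipoprotein lipase, had 26.8, 34.8 and 35.99 CPM in 6h RPE, against 10.7, 10.3, 13.9, 10.6 and 15.3 CPM in NB RPE (log2 fold change 1.39 ± 0.24 SE, adjusted p = 0.0159). Plin2, the coat protein of lipid droplets, had 96.2, 118 and 106 CPM in 6h RPE, against 70.8, 61.8, 63.4, 51.9 and 53.9 CPM in NB RPE (log2 fold change 0.82 ± 0.17 SE, adjusted p = 0.0368). The ranges of both were apart, as the dots by library show, and with the retina share subtracted they had 1.37 (adjusted p = 0.0272) and 0.79 (adjusted p = 0.0399). Slco1c1, which carries thyroid hormone and organic anions, averaged 103 ± 0.936 CPM in 6h RPE and 58.7 ± 13.3 CPM in NB RPE (log2 fold change 0.83 ± 0.19 SE, adjusted p = 0.0420). Ramp2, a partner of the calcitonin receptor-like receptor, differed by 0.82 (adjusted p = 0.0395) and Gnpda1, a glucosamine phosphate deaminase, by 0.77 (adjusted p = 0.0368) on the log2 scale. Rpl17-ps10 is named a ribosomal protein pseudogene, so its value of 0.79 (adjusted p = 0.0493) is uncertain. Plin2 was the 1 member of the lipid carrier list to pass. Fabp4, a fatty acid binding protein chosen after its values were seen, had 3.79, 3.46 and 4.79 CPM in 6h RPE, against 1.31, 0.801, 0.471, 0.699 and 0.614 CPM in NB RPE (log2 fold change 1.84 ± 0.36 SE, adjusted p = 0.0259).

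The largest rise by the naming rule was 3930402G23Rik, with 13.1, 13.5 and 12.2 CPM in 6h RPE, against 3.12, 2.84, 1.18, 1.48 and 2.23 CPM in NB RPE (log2 fold change 2.39 ± 0.31 SE, adjusted p = 0.00309). Tpbgl, a leucine-rich repeat gene of the shared class, had 32.6, 37.6 and 40.3 CPM in 6h RPE, against 13.9, 10.1, 9.81, 7.45 and 8.67 CPM in NB RPE (log2 fold change 1.86 ± 0.25 SE, adjusted p = 0.00355). Both were apart between groups, as the naming rule required. They passed in 22 of 23 alternative settings each, as did Osmr. Across the RPE groups 3930402G23Rik averaged 2.17 CPM in NB, 12.9 CPM at 6h, 4.42 CPM at 1d and 1.36 CPM at 3d.

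**Figure D3:**
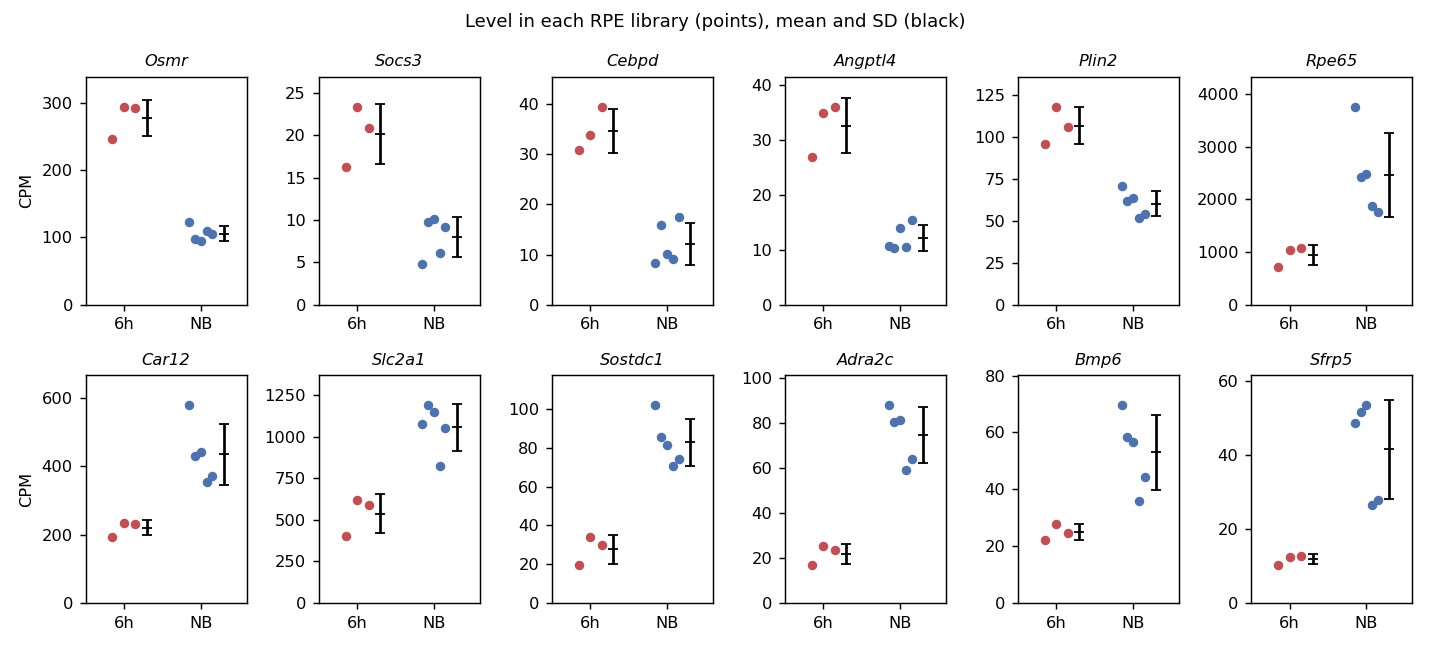
CPM of 12 genes in each RPE library (points), 6h in red left of NB in blue, with the mean and SD in black. Osmr, Socs3, Cebpd, Angptl4 and Plin2 have all 3 6h points above all 5 NB points, and the other 7 genes have all 6h points below all NB points.

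Of 18 genes of the LIF, oncostatin and STAT3 axis 3 rose (Osmr, Socs3 and Cebpd), none fell and the median log2 fold change was 0.04. The same 3 genes are the calls among 22 glial reactivity genes, of which 18 were positive in RPE, with a median of 0.46, and which summed to 2216 to 2521 CPM in 6h RPE and 1659 to 2203 CPM in NB RPE without overlap. In retina 21 of the 22 tested there rose with a median of 2.18, and the part of glial RNA in the 3 calls was not tested. In retina, fitted together with RPE over 15105 genes, 16 of the 18 genes of the axis rose at 6h with a median of 1.64, where 9.73% of all genes rose. The response of RPE lay below that of retina for 14 of these 18 (interaction term, limma; 8.56% of all genes). Lif, the cytokine itself, averaged 4.49 ± 2.01 CPM in 6h RPE and 3.02 ± 0.460 CPM in NB RPE (adjusted p = 0.457), and its log2 fold change in retina was 5.34. Stat3 averaged 191 ± 16.3 CPM in 6h RPE and 156 ± 20.9 CPM in NB RPE (adjusted p = 0.191). The shared signalling subunit Il6st had a log2 fold change of 0.03 (adjusted p = 0.934) and the LIF receptor Lifr of 0.06 (adjusted p = 0.940). For Osmr the RPE response minus the retinal one was -2.11 ± 0.23 SE on the log2 scale (adjusted p = 2.98e-07), for Cebpd -2.28 and for Socs3 -1.57.

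No immediate early or AP-1 gene passed in RPE, where 1.46% of all genes did, so a count of 0 is near that share. The 21 tested had a median log2 fold change of -0.12, and at an unadjusted p under 0.05 there were 2 higher and 2 lower, with edgeR 0 higher and 0 lower and with DESeq2 1 higher and 0 lower. In retina 14 of them rose, where 9.73% of all genes did, with a median of 1.25. For 12 of them the response was lower in RPE than in retina (8.56% of all genes). Jun averaged 87.3 ± 15.5 CPM in 6h RPE and 113 ± 38.5 CPM in NB RPE (adjusted p = 0.626). Fosl1 averaged 1.22 ± 0.838 CPM in 6h RPE and 0.341 ± 0.129 CPM in NB RPE (adjusted p = 0.134), with a retinal log2 fold change of 5.38. Atf3, a stress-induced member of the family, had 5.89, 3.16 and 6.05 CPM in 6h RPE, against 5.001, 13.9, 9.100, 14.8 and 25.5 CPM in NB RPE, which overlapped (adjusted p = 0.239).

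**Figure D4:**
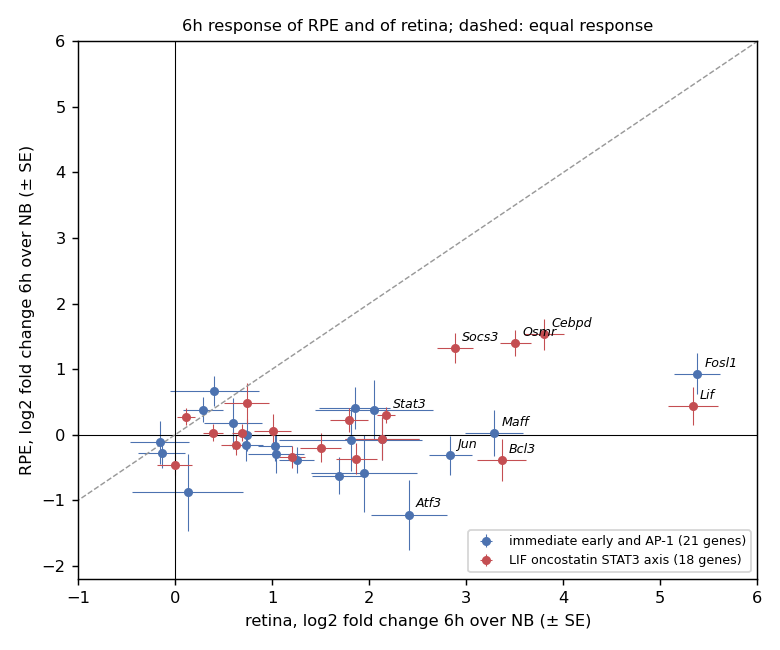
Log2 fold change at 6h over NB with its SE in RPE (vertical) against retina (horizontal) for 21 immediate early and AP-1 genes (blue) and 18 genes of the LIF, oncostatin and STAT3 axis (red); the dashed line marks equal responses. Osmr, Socs3 and Cebpd are the red points highest in RPE, and all 3 lie below the dashed line.

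The other stress and immune lists held no gene called higher in RPE by limma, where 0.808% of all genes were. Counts of 0 in lists of this size are near that share. Of 22 NF-kappaB genes none passed (median -0.23), of 34 interferon and antigen presentation genes none (median -0.22), of 17 complement genes none (median -0.02, which turns positive when scaled to library totals) and of 30 cell death genes none (median -0.102). For NF-kappaB genes at an unadjusted p under 0.05 there were 1 higher and 4 lower, with edgeR 0 higher and 0 lower and with DESeq2 0 higher and 1 lower, where 18.2% of all genes had an unadjusted p under 0.05. For interferon genes these counts were 0 in each case. For complement genes at an unadjusted p under 0.05 there were 0 higher and 3 lower, with edgeR 0 higher and 0 lower and with DESeq2 0 higher and 2 lower, and for cell death genes at an unadjusted p under 0.05 there were 2 higher and 1 lower, with edgeR 1 higher and 0 lower and with DESeq2 2 higher and 0 lower. Hspa5, the endoplasmic reticulum chaperone BiP, fell (log2 fold change -0.55, adjusted p = 0.0378) and was the only call among 23 heat shock and 28 unfolded protein genes, whose medians were -0.04 (positive when scaled to library totals) and -0.11. Of 25 NRF2 and heme oxygenase genes 2 fell, the quinone reductase Nqo1 (log2 fold change -0.55, adjusted p = 0.0399) and the glutathione transferase Gstp1 (log2 fold change -0.59, adjusted p = 0.0368), with a list median of -0.15. Hmox1 averaged 21.4 ± 2.62 CPM in 6h RPE and 18.1 ± 3.11 CPM in NB RPE (adjusted p = 0.502). Gfap, a glial filament gene, averaged 60.7 ± 40.1 CPM in 6h RPE and 13.7 ± 19.8 CPM in NB RPE (adjusted p = 0.0596).

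Rpe65, the isomerohydrolase that regenerates the visual chromophore, fell. It had 721, 1036 and 1076 CPM in 6h RPE, against 3763, 2431, 2486, 1879 and 1752 CPM in NB RPE, without overlap (log2 fold change -1.35 ± 0.29 SE, adjusted p = 0.0378). It was the only one of 13 retinoid cycle genes to pass, but the list median of -0.72 was the lowest of the lists with at least 3 genes tested, and 10 of the 13 had every 6h library below every NB library, where 5.98% of all genes did. Stra6, the retinol uptake receptor, had 320.0, 417 and 410.3 CPM in 6h RPE, against 799.6, 846, 868, 551 and 644 CPM in NB RPE (adjusted p = 0.0633). Rdh5, the 11-cis retinol dehydrogenase, averaged 677 ± 104 CPM in 6h RPE and 1183 ± 236 CPM in NB RPE (adjusted p = 0.107), and the retinal carrier Rlbp1 1063 ± 174 CPM in 6h RPE and 1775 ± 412 CPM in NB RPE (adjusted p = 0.119). Lrat, which esterifies retinol, had a log2 fold change of -0.24 (adjusted p = 0.711). These genes also make part of the summed RPE identity level, whose ratio of 0.638 is given above; how far that lower summed level bears on each was not tested. With the rod level as a covariate the list median was -0.700, and Rpe65 had -1.43 (adjusted p = 0.182).

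Slc2a1, Car12 and Car14 fell. Of 22 channel and transport genes, which include Car12 and Car14 but not Slc2a1, 20 did not pass. Over all genes 1.46% passed. Slc2a1, the glucose transporter that brings glucose in from the choroid, had 405, 621 and 587 CPM in 6h RPE, against 1077, 1190.1, 1147, 826 and 1049.8 CPM in NB RPE (log2 fold change -0.99 ± 0.201 SE, adjusted p = 0.0295). Car12, a membrane carbonic anhydrase, had 194, 233 and 232 CPM in 6h RPE, against 578, 429.5, 442, 352 and 369.7 CPM in NB RPE (log2 fold change -0.97 ± 0.18 SE, adjusted p = 0.0229). Car14, another carbonic anhydrase of the cell surface, had 231, 338 and 329 CPM in 6h RPE, against 733, 662, 667, 458 and 518 CPM in NB RPE (log2 fold change -1.02 ± 0.22 SE, adjusted p = 0.0368). All 3 were apart between the groups, and Car12 also passed against the NB library A1 alone (log2 fold change -1.400, adjusted p = 0.0435). Car12 and Car14 were the 2 of 22 channel and transport genes to fall, none rose, 5 were positive, and the list median was -0.36. The potassium channel Kcnj13 averaged 212 ± 55.99 CPM in 6h RPE and 216 ± 50.2 CPM in NB RPE (adjusted p = 0.960). Slc2a1 was the only call among 19 glycolysis genes, with a median of -0.07 that turns positive when scaled to library totals.

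Secreted regulators of BMP and Wnt signalling and the receptors Adra2c and Crhr2 were among the largest falls. Sostdc1, a secreted antagonist of BMP and Wnt ligands, had 19.5, 33.98 and 29.9 CPM in 6h RPE, against 102, 85.7, 81.7, 70.6 and 74.5 CPM in NB RPE. It showed no overlap, as the naming rule required (log2 fold change -1.59 ± 0.21 SE, adjusted p = 0.00380). It passed in all 23 alternative settings, with log2 fold changes from -1.896 to -1.35. Sfrp5, a secreted Wnt inhibitor, had 10.3, 12.5 and 12.8 CPM in 6h RPE, against 48.7, 51.7, 53.5, 26.4 and 27.7 CPM in NB RPE (log2 fold change -1.71 ± 0.29 SE, adjusted p = 0.0144). The ligands Bmp6 and Bmp2 had log2 fold changes of -1.04 ± 0.25 SE (adjusted p = 0.0493) and -1.04 ± 0.22 SE (adjusted p = 0.0378). Bmp6 had 22.2, 27.9 and 24.5 CPM in 6h RPE, against 69.6, 58.5, 56.7, 35.7 and 44.4 CPM in NB RPE. Id1, a target of BMP signalling chosen after its values were seen, averaged 70.5 ± 2.37 CPM in 6h RPE and 116 ± 18.7 CPM in NB RPE (log2 fold change -0.699 ± 0.14 SE, adjusted p = 0.0281). Among 30 growth factor genes 1 rose (Angptl4) and 2 fell (Bmp2 and Bmp6), with a median of -0.302.

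Adra2c, the alpha-2C adrenergic receptor, had 16.9, 25.2 and 23.3 CPM in 6h RPE, against 87.8, 80.2, 81.2, 58.8 and 63.9 CPM in NB RPE and showed no overlap (log2 fold change -1.75 ± 0.26 SE, adjusted p = 0.00657). Crhr2, a receptor for the corticotropin-releasing factor family, had 5.92, 7.66 and 8.95 CPM in 6h RPE, against 27.2, 27.1, 22.6, 12.97 and 17.4 CPM in NB RPE (log2 fold change -1.42 ± 0.24 SE, adjusted p = 0.0144). Dusp4, a phosphatase that switches off MAP kinases, had 36.97, 50.9 and 54.1 CPM in 6h RPE, against 173, 99.00, 115, 88.3 and 108 CPM in NB RPE (log2 fold change -1.27 ± 0.25 SE, adjusted p = 0.0274). All 3 are RPE-richer genes. Zfp691, a zinc finger gene, had a log2 fold change of -1.23 ± 0.18 SE (adjusted p = 0.00657), and the incretin hormone gene Gip one of -1.35 ± 0.27 SE (adjusted p = 0.0265). Minar1 (log2 fold change -1.19, adjusted p = 0.0331) and the predicted gene Gm33489 (log2 fold change -1.702, adjusted p = 0.00657) complete the 10 largest falls.

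Falls also reached genes of neighbouring or shared cell types. Sox10, a transcription factor of melanocytes and other neural crest cells, averaged 34.2 ± 3.93 CPM in 6h RPE and 70.2 ± 12.9 CPM in NB RPE (log2 fold change -1.01 ± 0.22 SE, adjusted p = 0.0378) and was the only call of 10 melanocyte genes, whose sum was 2559 to 3727 CPM in 6h RPE and 2866 to 4813 CPM in NB RPE. Col3a1, a fibrillar collagen, averaged 32.3 ± 4.63 CPM in 6h RPE and 73.8 ± 23.7 CPM in NB RPE (log2 fold change -1.12 ± 0.27 SE, adjusted p = 0.0487) and was the only call of 13 fibroblast and pericyte genes, with sums of 619 to 748 CPM in 6h RPE and 421 to 1195 CPM in NB RPE. Both sums overlapped between the groups, and their part in these 2 results was not tested. Rab27a, which tethers melanosomes, fell (log2 fold change -0.57, adjusted p = 0.0282), the only call of 13 melanin synthesis genes (median -0.296). Of 19 cell cycle genes Cdk1 (log2 fold change -0.98, adjusted p = 0.0274) and Ccnd3 (log2 fold change -0.58, adjusted p = 0.0256) fell. Of 24 phagocytosis and lysosome genes none passed, with a median of -0.19; at an unadjusted p under 0.05 there were 0 higher and 8 lower, with edgeR 0 higher and 0 lower and with DESeq2 0 higher and 6 lower, beside the 18.2%, 2.29% and 7.48% of all genes given above. The uptake receptor Mertk averaged 41.7 ± 7.503 CPM in 6h RPE and 70.9 ± 26.1 CPM in NB RPE (adjusted p = 0.125).

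Of 19 clock genes 1 rose and 1 fell. Cry1, a clock repressor, had 24.8, 20.7 and 20.8 CPM in 6h RPE, against 19.9, 13.7, 12.2, 10.2 and 11.7 CPM in NB RPE (log2 fold change 0.72 ± 0.17 SE, adjusted p = 0.0420). Against the NB library A1 alone it had 0.14 (adjusted p = 0.754), and with the retina share subtracted its sign turned, at -1.27 (adjusted p = 0.425). Ciart, another repressor of the clock, had 4.04, 6.92 and 9.54 CPM in 6h RPE, against 19.2, 15.01, 15.2, 13.7 and 11.8 CPM in NB RPE (log2 fold change -1.13 ± 0.25 SE, adjusted p = 0.0384). Neither overlapped between the groups; in retina their log2 fold changes were 0.47 for Cry1 and -0.87 for Ciart, and the difference between tissues did not pass (adjusted p = 0.328 and 0.566). The labels give no hour of dissection. Among 12 glucocorticoid response genes Cebpd was the only call and the median was 0.23; Fkbp5 averaged 42.4 ± 6.49 CPM in 6h RPE and 27.3 ± 3.701 CPM in NB RPE (adjusted p = 0.0596) and Tsc22d3 48.1 ± 5.77 CPM in 6h RPE and 27.2 ± 8.404 CPM in NB RPE (adjusted p = 0.0594).

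**Figure D5:**
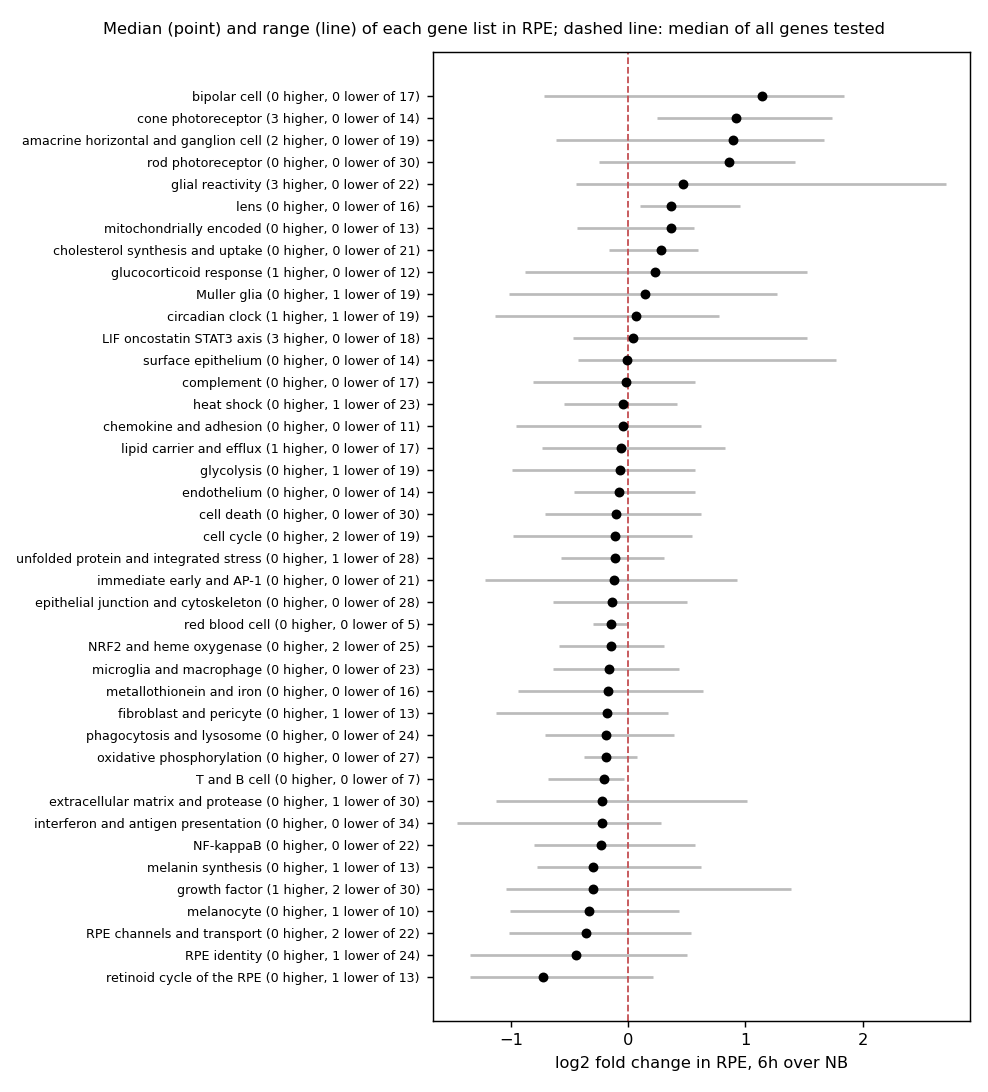
Median (point) and range (line) of the log2 fold change in RPE, 6h over NB, for each gene list with at least 3 genes tested, with the number of members past the threshold beside its name; the dashed line is the median of all genes. The bipolar, cone, inner retinal and rod lists have the 4 highest medians, 0.86 to 1.14, and the retinoid cycle list the lowest, -0.72.

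The 6h responses of RPE and retina differed for 2653 of 15105 genes, or 17.6%, with RPE above retina for 1360 (9%) and below for 1293 (8.56%). Of the 48 genes named, 31 were among them. For Rpe65 RPE minus retina was -1.31, for Adra2c -1.39 and for Car12 -1.47 on the log2 scale. Rod genes were among those above: 29 of 30 had a higher response in RPE libraries than in retina, where the rod list median was -0.66 and 12 of the 30 fell (9.7% of all genes). The rod level of RPE libraries relative to retina was 11.02 to 32.8% at 6h and 5.33 to 8.42% in NB. The part of attached neural retina in these differences was not tested.

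Levels at the later times were not tested here and are given as means over 5 NB, 3 6h, 4 1d and 4 3d libraries. Osmr averaged 105 CPM in NB, 277 CPM at 6h, 615 CPM at 1d and 199.8 CPM at 3d. Socs3 averaged 7.998 CPM in NB, 20.1 CPM at 6h, 39.1 CPM at 1d and 10.5 CPM at 3d. Plin2 averaged 60.3 CPM in NB, 107 CPM at 6h, 222 CPM at 1d and 104 CPM at 3d. All 3 were thus highest at 1d. Rpe65 averaged 2462 CPM in NB, 944 CPM at 6h, 432 CPM at 1d and 1960.2 CPM at 3d, and Adra2c 74.4 CPM in NB, 21.8 CPM at 6h, 18.1 CPM at 1d and 65.8 CPM at 3d. Both were lowest at 1d and nearer to NB at 3d than at 6h. Gnb3 averaged 17.98 CPM in NB, 64.8 CPM at 6h, 163 CPM at 1d and 80.4 CPM at 3d, while the rod share of RPE libraries ranged from 10.2 to 29.8% at 1d and from 12.2 to 21.6% at 3d.

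Of the deleted genes, Abca4 had 180.3, 187 and 228 CPM in 6h RPE, against 276, 255, 244, 212 and 214 CPM in NB RPE. Rdh8 had 7.04, 3.35 and 9.099 CPM in 6h RPE, against 2.62, 4.01, 2.43, 2.795 and 2.46 CPM in NB RPE. A count over a whole gene does not show whether a part of it is deleted, so these values check neither genotype nor group.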

How the data were processed

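RNA of RPE cells was sequenced by the submitters as stranded mRNA libraries. The submitters' processing notes list the genome GRCm38 and the tools STAR, Trimmomatic and edgeR, with no versions; whether reads were counted by strand is not given in the sources used here. The deposited signal values are CPM on an effective library size set by the authors (per the file headers, and seen in column sums that differ). In all 16 RPE libraries every value was a whole multiple of that of 1 read (tolerance 0.01 read), which gave back the reads for the alternative count tests. The authors' own fold changes and p-values were not used, nor were the ATAC libraries. One read was worth 0.036 to 0.041 CPM in the 6h and NB A1 libraries and 0.073 to 0.078 CPM in NB B1 to B4. The letters A and B were given here from column names, in which NB numbers repeat, so NB columns were matched to the group only.

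Values were tested with limma 3.58.1 in R 4.3.3 on log2(CPM + 0.5), a fold change that understates the change of low genes. The fit had all 16 RPE libraries, a variance trend and no covariate, for genes at 1 CPM or more in at least 3 libraries (16712 of 16714). The design had assumed CPM and was kept. The response of RPE was set against that of retina by an interaction term over 33 libraries. Sums were tested with two-sided exact permutation tests. On simulated data for this comparison with 16712 genes, 71 of 100 genes changed 2-fold and 98 of 100 changed 4-fold were called, with 9 false calls. The simulation drew each gene independently, with no retina share or other shift common to a library. These rates therefore need not hold for the real libraries. Genes were named from those called that did not overlap between the groups and averaged at least 5 CPM in the higher group. These were the 10 largest rises, the 10 largest falls and up to 10 rises with RPE level at least that of retina (8 existed). Up to 3 called members of each list were also named, without the conditions on overlap and level. The members and lists were chosen with earlier results of these data known. Alternatives changed the pseudocount, filter, scaling, libraries, weights, carry-over and test (edgeR 4.0.16, DESeq2 1.42.0). Symbols were matched by Ensembl identifier, leaving 7 unmatched.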

Additional observations from a re-analysis of the deposited data

Results flagged for a closer look

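In the NB group the Pde6c level of 1 library stood apart: the gap to its nearest neighbour was 0.721 of the whole range of the 5 libraries, above Dixon's critical value of 0.71. Its levels were 27.1, 17.5 and 25.2 CPM in 6h RPE, against 16.5, 9.76, 8.16, 10.5 and 8.29 CPM in NB RPE. Chance marks about 1 in 20 such groups, and 48 genes were looked at in the NB group.

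The 6h response differed between RPE and retina for 31 of the 48 named genes (interaction term of the limma fit over both tissues). The response of RPE minus that of retina, on the log2 scale, was positive for Fam135b (1.92), Ache (1.61), Gnb3 (1.54), Tpbgl (1.54), Neurod1 (1.36), Pcare (1.25), Slc17a6 (1.23), Nptx1 (1.19), Gm15513 (1.17) and Gad2 (1.05). It was negative for Cebpd (-2.28), Osmr (-2.11), Sfrp5 (-1.75), Minar1 (-1.69), Crhr2 (-1.67), Socs3 (-1.57), Car12 (-1.47), Adra2c (-1.39), Dusp4 (-1.37), Rpe65 (-1.31), Ccnd3 (-1.28), Bmp6 (-1.27), Sox10 (-1.196), Sostdc1 (-1.14), Zfp691 (-1.05), Rab27a (-1.02), Cdk1 (-0.96), Slc2a1 (-0.89), Nqo1 (-0.88), Car14 (-0.78) and Hspa5 (-0.77). These genes were chosen by their change in RPE, so the count of 31 is a description. All of the genes with a positive difference other than Tpbgl are of the retina-richer class, and the part of attached neural retina in these differences was not tested.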

How the results depend on the processing

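The count of 244 calls (135 higher, 109 lower) was 225 and 252 with pseudocounts of 0.1 and 2, and 244 with no filter and with normalization factors computed anew. It was 147 (119 higher, 28 lower) scaled to library totals, 452 (313 higher, 139 lower) in a fit of the 6h and NB libraries alone, 3711 (1831 higher, 1880 lower) with array weights, 383 (240 higher, 143 lower) with edgeR and 1250 (684 higher, 566 lower) with DESeq2. Against NB A1 alone it was 32 (5 higher, 27 lower) and against NB B1 to B4 1017 (523 higher, 494 lower). It was 18 (15 higher, 3 lower) with the rod covariate, 783 (21 higher, 762 lower) with the retina share subtracted, which shifted the median of all genes to -0.36, and 57 (12 higher, 45 lower) subtracted and rescaled, an alternative chosen after seeing the data. Leaving out 1 library gave 9 to 1011 calls, 7 to 518 higher and 2 to 493 lower. The cause was not tested.

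With the replicate number as a block the count was 56 (51 higher, 5 lower), 38 of them among the 244. The deviations of same-numbered libraries correlated by -0.399 to 0.07 over genes, so the numbers do not give a pairing. Cry1, Pde6c and Suv39h2 reversed sign with the share subtracted (-1.27, -1.74 and -0.046) and rescaled (-1.21, -1.804 and -0.049). Both subtractions left no difference between the groups in 9 other named genes, such as Neurod1, so the rises of these genes were gone there. Apart from Cry1, Pde6c and Suv39h2, the named genes kept their sign in every alternative that left a difference, and Sostdc1 alone passed in all 23. The summed RPE identity level had a log2 ratio of -0.58 scaled to library totals (exact permutation p = 0.107) and -0.74 to -0.51 without 1 library (p = 0.0571 to 0.0952, the smallest possible at those sizes). The rod level relative to retina, chosen after seeing the data, had a log2 ratio of 1.55 against 0.75 for the sum. The tissue difference held 1536 to 3756 genes without 1 library.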

Other observations

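No gene of the cholesterol, mitochondrial or oxidative phosphorylation lists passed (limma, 1.46% of all genes called). Over all 16712 genes 8334 had a positive log2 fold change and 18.2% an unadjusted p under 0.05. Of 21 cholesterol synthesis and uptake genes 17 had a positive log2 fold change, with a median of 0.28, and none passed; at an unadjusted p under 0.05 there were 7 higher and 0 lower, with edgeR 0 higher and 0 lower and with DESeq2 1 higher and 0 lower. Hmgcs1, an early enzyme of the pathway, averaged 271 ± 27.3 CPM in 6h RPE and 222 ± 33.2 CPM in NB RPE (adjusted p = 0.296). Of 13 mitochondrially encoded genes 12 were positive, with a median of 0.37, while 25 of 27 nuclear oxidative phosphorylation genes were negative, with a median of -0.19, and none of either list passed. For the mitochondrially encoded genes at an unadjusted p under 0.05 there were 2 higher and 0 lower, with edgeR 0 higher and 0 lower and with DESeq2 0 higher and 0 lower, and for the nuclear genes at an unadjusted p under 0.05 there were 0 higher and 10 lower, with edgeR 0 higher and 0 lower and with DESeq2 0 higher and 1 lower. Of 28 epithelial junction and cytoskeleton genes none passed (median -0.14); at an unadjusted p under 0.05 there were 1 higher and 2 lower, with edgeR 0 higher and 0 lower and with DESeq2 0 higher and 1 lower. Of 30 extracellular matrix and protease genes Col3a1 alone fell (median -0.22). All 16 lens genes were positive, with a median of 0.37, and none passed or had an unadjusted p under 0.05 (limma), and edgeR and DESeq2 called 0. Tyro3, a receptor for outer segment uptake chosen after its values were seen, had 88.6, 84.7 and 72.8 CPM in 6h RPE, against 106, 136, 138, 135 and 118 CPM in NB RPE (log2 fold change -0.62 ± 0.13 SE, adjusted p = 0.0324).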
